A study of Homo sapiens with 16 samples.

Results

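Granins are acidic proteins of the dense core vesicles, the regulated secretory granules of neurons and endocrine cells, where they help to form and load the granule. Many are also precursors from which shorter peptides are cut. The cutting is done inside the vesicle by the prohormone convertases PCSK1 and PCSK2, after which carboxypeptidase E (CPE) removes the basic residues left at the new ends. In the nervous system these genes mark neurons and neuroendocrine cells, and several of them are used as activity-responsive neuronal markers.

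The 9 genes described here are 6 granins or granin-like proteins (CHGA, CHGB, SCG2, SCG3, SCG5 and VGF) and 3 processing enzymes (PCSK1, PCSK2 and CPE), out of 57736 genes in the count table. All 9 were found in the table and all 9 passed the filter on low counts, as did 24249 genes in all. The genes were chosen by family, with earlier results of these libraries in view, among them the difference between TMG-treated and control cells and the change from stage to stage. CHGA was in addition named by the study as a known neuronal marker that was raised by TMG in the same libraries. The values below are therefore a description of the genes, and the counts of genes that passed a threshold are not independent evidence of a direction.

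RNA was sequenced from the human embryonic stem cell line H9, whose cells were taken through neural differentiation and collected undifferentiated (D0) and on days 12, 30 and 70 (D12, D30 and D70). At each stage there were 2 control libraries, from cells given the vehicle DMSO, and 2 TMG libraries, from cells kept in 40 µM Thiamet-G, an inhibitor of the enzyme that removes O-GlcNAc from proteins, both before and during differentiation. All 16 libraries came from this 1 line, with no genetic change in either arm, so the spread between replicates is that between cultures. For 8 libraries titled TMG a separate treatment tag reads control, and the titles were followed.

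The libraries held between 10334908 and 19836878 counts. POU5F1, which marks pluripotent cells, was at 824 to 893 CPM (a gene's counts relative to the library's total after TMM scaling) in the 4 libraries of D0 and at most 9.13 CPM afterwards. The libraries of D30 and D70 differed in makeup. The summed level of 7 mesenchyme genes (collagens and related stromal genes) was 45332 and 59108 CPM in the control and TMG libraries numbered 2 on D70 and 29704 CPM in the second TMG library of D30, against 4063 to 7723 CPM in the other 5 libraries of these stages. The summed level of 6 choroid plexus genes was 10395 CPM in the first control and 3374 CPM in the first TMG library of D70, and at most 492 CPM in the other 6. In a bulk library fewer cells of a type and less RNA per cell cannot be told apart, here and in every value below.

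For 7 of the 9 genes RefSeq gives a promoter sequence (GRCh38.p14, 300 bases, from 250 before the start to 50 after it), with no entry for CHGB and SCG2. These 7 genes have 9 promoters in that set. The cAMP response element (CRE), TGACGTCA, reads the same on both strands and was found in 3 of the 9 promoters, against 1.85% of 35116 promoters. These 3 are shown with the element in capitals, as the 110 bases before the start of transcription, read 5′ to 3′ on the strand of the gene. They are the promoters of CHGA (chr14:92923040-92923149, plus strand), VGF (chr7:101165570-101165679, minus strand) and PCSK1 (chr5:96433249-96433358, minus strand).
CHGA: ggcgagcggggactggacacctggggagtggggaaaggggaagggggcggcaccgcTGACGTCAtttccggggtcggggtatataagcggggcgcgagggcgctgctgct
VGF: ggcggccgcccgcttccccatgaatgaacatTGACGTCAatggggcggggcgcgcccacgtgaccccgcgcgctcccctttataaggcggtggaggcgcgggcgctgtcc
PCSK1: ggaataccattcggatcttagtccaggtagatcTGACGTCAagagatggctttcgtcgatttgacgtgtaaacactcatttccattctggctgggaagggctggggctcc

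The element began 54 bases before the start in CHGA, 79 before it in VGF and 77 before it in PCSK1. It thus lay at a like distance in VGF and PCSK1 and nearer the start in CHGA. Its 5-base left part, TGACG, which is contained in the full element, was searched on both strands. It lay in 8 of the 9 promoters of the 7 genes, against 24.6% of all promoters, and in at least 1 promoter of each gene. Both parts of the RE1 element, the site of the repressor REST, were found together in SCG3 alone among the 7 genes. The letters searched were TTCAGCACC and GGACAGCGC on both strands, at any distance from each other in the window. With no spacing required, 7 promoters of the 35116 (0.0199%) held both parts. In SCG3 they lay on the plus strand at chr15:51681511-51681536, with the first of them starting at base 9 after the start of transcription, and the stretch is shown with both parts in capitals.
SCG3: TTCAGCACCcacagggcGGACAGCGC

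A single part, GGACAGCGC, was also found in VGF, on the opposite strand. These are matches of letters in a window, and binding was not measured.

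Chromogranin A (CHGA, ENSG00000100604, chromosome 14, 93389495 to 93401630 on GRCh37), a core protein of the dense core granule, was expressed in undifferentiated cells. On D0 it stood at 99.8 and 40.1 CPM in the control libraries and at 35.4 and 38.6 CPM in the TMG libraries, with replicates 1 and 2 given in that order here and throughout. On D12 the level was 1.08 and 1.15 CPM in control and 1.45 and 2.05 CPM in TMG. It was thus high in stem cells and between 1.08 and 2.05 CPM in all libraries 12 days later. On D30 the control libraries were at 0.094 and 0.652 CPM, from 1 and 13 counts, and the TMG libraries at 4.66 and 20.4 CPM, from 48 and 216 counts. On D70 the level was 3.09 and 12.2 CPM in control and 22.4 and 100.3 CPM in TMG. Both TMG libraries lay above both controls on D12, D30 and D70, as in 17.8%, 23.1% and 9.77% of all genes. They lay below both on D0, as in 16.9% of all genes. The D12 values came from 22 and 21 counts in control and 28 and 33 counts in TMG. The replicates of D30 and D70 were several-fold apart within each arm.

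Chromogranin B (CHGB, ENSG00000089199, chromosome 20, 5892156 to 5905999), which is stored beside CHGA in the granule, was low throughout. It was at 3.03 and 2.03 CPM in control and 1.72 and 2.58 CPM in TMG on D0, where the arms overlapped. On D12 it was at 1.38 and 1.09 CPM in control and 1.71 and 2.98 CPM in TMG. The D30 controls were at 0.282 and 1.25 CPM, and the TMG libraries at 2.91 and 8.99 CPM. The lowest control value of CHGB, as of CHGA, was that of the first D30 library, with 3 counts. On D70 CHGB was at 5.27 and 6.92 CPM in control and at 14.8 and 3.98 CPM in TMG, so that the arms overlapped again.

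Secretogranin II (SCG2, ENSG00000171951, chromosome 2, 224461658 to 224467079), the precursor of secretoneurin, was the granin that edgeR called higher at later stages in the control cells. On D0 its level was 4.76 and 2.38 CPM in control and 3.36 and 3.66 CPM in TMG, and on D12 it was 1.18 and 1.48 CPM in control and 1.66 and 3.11 CPM in TMG. On D30 the controls were at 5.83 and 29.0 CPM and the TMG libraries at 23.1 and 36.5 CPM. The D70 values were 14.5 and 69.6 CPM in control and 40.0 and 24.0 CPM in TMG. The arms overlapped on D0, D30 and D70, and in the controls of both late stages the second library was the higher.

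Secretogranin III (SCG3, ENSG00000104112, chromosome 15, 51973689 to 52013223), which binds CHGA at the granule membrane, fell after D0, as CHGA did. On D0 it stood at 59.6 and 38.3 CPM in control and at 36.98 and 38.3 CPM in TMG. On D12 it was at 3.05 and 3.07 CPM in control and 3.48 and 3.91 CPM in TMG. The D30 values were 1.97 and 1.15 CPM in control and 4.66 and 10.0 CPM in TMG, with no overlap. On D70 it was at 4.89 and 14.7 CPM in control and 12.5 and 2.31 CPM in TMG. The lowest D70 value of SCG3 was in the second TMG library, the one in which CHGA had its highest.

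VGF (ENSG00000128564, chromosome 7, 100805790 to 100808850), a granin-like precursor induced by neurotrophins, passed the threshold in no comparison of stages or arms in the edgeR fit. It was at 11.4 and 15.6 CPM in control and 10.0 and 8.76 CPM in TMG on D0. On D12 it was at 9.44 and 11.2 CPM in control and 8.47 and 8.82 CPM in TMG. The TMG libraries thus lay below the controls at both early stages, as in 16.9% of all genes on D0 and 16.5% on D12. On D30 the order was the opposite, with 6.20 and 2.46 CPM in control and 9.33 and 7.86 CPM in TMG. On D70 VGF was at 10.2 and 6.12 CPM in control and at 20.1 and 1.29 CPM in TMG, so that the TMG libraries were the highest and the lowest of the stage.

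SCG5 (ENSG00000166922, chromosome 15, 32933877 to 32989299) encodes 7B2, the chaperone that PCSK2 needs to become active. On D0 it was at 17.5 and 12.7 CPM in control and 16.9 and 15.97 CPM in TMG, and on D12 at 21.9 and 28.0 CPM in control and 22.8 and 18.6 CPM in TMG. On D30 the controls were at 41.0 and 29.5 CPM and the TMG libraries at 34.2 and 9.84 CPM. The D70 values were 25.3 and 8.53 CPM in control and 33.6 and 2.40 CPM in TMG. The arms overlapped at every stage, and the 3 lowest values of SCG5 were in the 3 libraries with the highest mesenchyme level. SCG5 overlaps an antisense gene, SCG5-AS1, which held 31 counts over the 16 libraries against 5145 for SCG5. Whether counting used the strand is not given in the sources used here.

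The convertase PCSK1 (ENSG00000175426, chromosome 5, 95726037 to 95769847), which makes the first cuts in many prohormones, was low at all stages. It was at 3.34 and 6.64 CPM in control and 5.97 and 6.23 CPM in TMG on D0. On D12 it was at 2.16 and 1.48 CPM in control and 1.87 and 1.30 CPM in TMG. The D30 values were 2.54 and 0.502 CPM in control and 2.23 and 4.16 CPM in TMG, and the D70 values 5.46 and 3.94 CPM in control and 5.14 and 6.66 CPM in TMG. The arms overlapped at all 4 stages.

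The convertase PCSK2 (ENSG00000125851, chromosome 20, 17206752 to 17465223), which cuts further and depends on 7B2, was below 3 CPM in the controls of D0 to D30 and above 6 CPM in every D70 library. On D0 it was at 1.11 and 2.87 CPM in control and 1.44 and 1.19 CPM in TMG. On D12 it was at 1.57 and 0.985 CPM in control and 2.34 and 3.04 CPM in TMG. The D30 controls were at 0.752 and 1.56 CPM, from 8 and 31 counts, and the TMG libraries at 9.13 and 24.3 CPM, from 94 and 257 counts. Neither D12 nor D30 had an overlap between the arms. Both TMG libraries lay above both controls in 17.8% and 23.1% of all genes at these stages. On D70 PCSK2 was at 6.30 and 22.1 CPM in control and 51.8 and 16.4 CPM in TMG, which overlapped.

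CPE (ENSG00000109472, chromosome 4, 166282346 to 166419699) was the most abundant member per length from D12 on. On D0 it was at 24.5 and 27.2 CPM in control and 27.5 and 25.1 CPM in TMG. On D12 it was at 69.0 and 259 CPM in control and 129.7 and 173 CPM in TMG. The D30 values were 156 and 158 CPM in control and 184 and 209.7 CPM in TMG, and the D70 values 208 and 147 CPM in control and 213 and 146 CPM in TMG. Only on D30 did the TMG libraries of CPE lie apart from the controls, and there by a small margin.

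**Figure D1:**
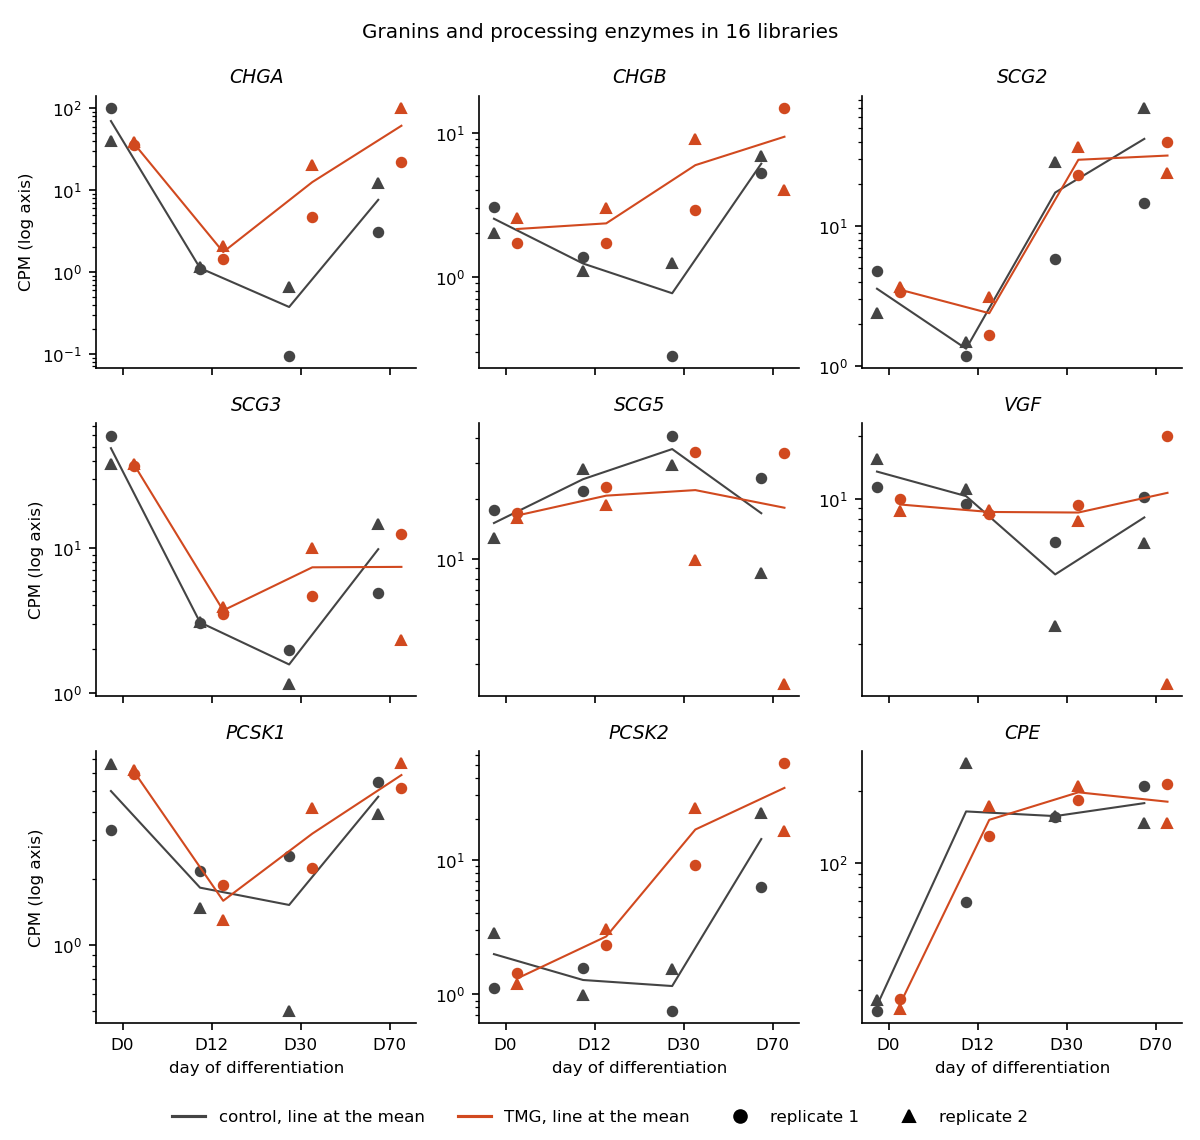
Level of each of the 9 genes in CPM (log axis, a scale of its own in each panel) at the 4 stages, which are evenly spaced here, with controls in grey and TMG in red, circles for replicate 1, triangles for replicate 2 and lines through the group means (n = 2). CHGA and SCG3 were high on D0 and fell by D12, and SCG2, PCSK2 and CPE were higher late than early. On D30 both TMG libraries of CHGA, CHGB, SCG3 and PCSK2 lay above both controls, as in 23.1% of all genes.

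Levels of different genes were compared per length, as CPM per kb of exon. In D0 controls CHGA was the highest at 23.1 ± 13.9 CPM per kb (SD, n = 2), followed by SCG3 at 15.4 ± 4.75, CPE at 8.29 ± 0.607, SCG5 at 6.88 ± 1.57 and VGF at 5.04 ± 1.10. The libraries of CHGA and SCG3 overlapped, as did those of CPE with SCG5 and of SCG5 with VGF. The other 4 genes had group means of 0.283 to 1.38 CPM per kb, with PCSK2 the lowest. In D70 controls the order was another one. CPE stood at 56.9 ± 13.9 CPM per kb, above SCG2 at 16.3 ± 15.1 and SCG5 at 7.69 ± 5.39, and these last overlapped. CHGA was at 2.52 ± 2.12 CPM per kb in these controls, and at 20.3 ± 18.2 CPM per kb in the TMG cells of D70. PCSK1 was the lowest of the 9 in D70 controls, at 0.878 ± 0.201 CPM per kb.

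The comparison of stages within the control cells asks how the genes changed along differentiation. From D0 to D12, CHGA fell by 5.96 on the log2 scale (SE 1.08, adjusted p = 0.00586 by edgeR over all genes tested) and SCG3 fell by 4.00 (SE 0.76, adjusted p = 0.00744), while CPE rose by 2.66 (SE 0.49, adjusted p = 0.00612). Thus 2 of the 9 genes were lower at an adjusted p under 0.05, against 9.71% of all genes, and 1 was higher, against 6.97%. Without either D12 control library 1 member was called in either direction, and 3.96% and 4.83% of all genes were. The rise in CPE was 3.35 without the first D12 control library and 1.41 without the second. From D12 to D30 SCG2 rose by 3.71 (SE 0.88, adjusted p = 0.0461), 1 gene of 9 against 1.91% of all genes, and none was lower, against 1.69%. That call was lost when any 1 of the 4 libraries was left out, and at most 0.775% of all genes were then called.

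From D30 to D70 no member passed the threshold in either direction, and 0.305% and 0.0784% of all genes were higher and lower. The log2 differences of this step were 4.13 for CHGA, 2.90 for CHGB, 2.67 for SCG3 and 3.57 for PCSK2, with adjusted p between 0.0818 and 0.118. With 1 library left out in turn they ranged from 2.79 to 6.21 for CHGA, from 2.27 to 4.39 for CHGB, from 1.64 to 3.26 for SCG3 and from 2.36 to 4.22 for PCSK2. Of these, PCSK2 passed the threshold without the first D70 control library, as did 0.757% of all genes. DESeq2, the tool the study used, called these 4 members there, against 8.38% of the genes it tested (edgeR called 93 genes in both directions together). For D30 over D0 and D70 over D12 in control it called 5 and 4 members, against 35.4% and 19.5% of genes, and for D30 over D12 in TMG-treated cells 3, against 5.79%. Over the longer spans edgeR called SCG2 and PCSK2 higher on D70 than on D12 (6.44% of all genes higher) and none lower (4.66%). SCG2 was higher by 4.98 and PCSK2 by 3.46. With 1 library left out in turn SCG2 lay between 3.43 and 5.70 and PCSK2 between 2.28 and 4.10. Both calls were lost when either D12 control library was left out, and 1 member was called without the second D70 control. The share of all genes called was then 1.33% and 2.3% without a D12 control and 8.78% without the D70 one.

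Between D0 and D30 CPE was higher (14% of all genes) and CHGA and SCG3 were lower (16.7%). Without the first D30 control 5 members were called, against 13.9% of all genes in both directions. Between D0 and D70 SCG2, PCSK2 and CPE were higher (15% of all genes) and CHGA and SCG3 were lower (14.7%). Without any 1 of those 4 libraries 2 to 3 members were called in place of 5, and the share of all genes called fell from 29.8% to between 14.2% and 23.9%. The D70 controls were below D0 by 3.21 in CHGA (SE 0.93) and by 2.32 in SCG3 (SE 0.71) on the log2 scale, so that neither gene was back at its stem cell level. With 1 library left out in turn the difference lay between -4.50 and -2.37 in CHGA and between -3.32 and -1.74 in SCG3. In TMG-treated cells CPE was again higher on D12 than on D0 (7.24% of all genes) and CHGA and SCG3 were again lower (9.19%). Without either D0 library no member was called there, and without either D12 library 1 was, while 3.21% to 6.36% of all genes were called in these fits and 16.4% in the full one. The edgeR fit of all 16 libraries called no member from D12 to D30 in TMG-treated cells (0.388% of all genes higher and 0.124% lower). It called none from D30 to D70 either (0.00412% of all genes in each direction). The nearest was SCG2 from D12 to D30, higher by 3.65 (SE 0.86, adjusted p = 0.0860).

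The comparison of TMG-treated with control cells asks what the inhibitor changed at each stage. On D0 no member and no gene passed in the edgeR fit used throughout (0% at an adjusted p under 0.05). No member was higher at an unadjusted p under 0.05 there, against 0.367% of all genes. The median log2 difference of the 9 genes was -0.23, with 3 genes higher, and the largest was that of CHGA, at -0.92 (SE 0.86). With 1 library left out in turn that of CHGA lay between -1.43 and -0.088, the latter without the first control library. On D12 there was again no call (0%), and no member was higher at an unadjusted p under 0.05 (1.54% of all genes). The median there was 0.27, with 5 genes higher. The largest D12 differences were 1.06 in PCSK2 (SE 0.78), 0.92 in CHGB (SE 0.76) and 0.84 in SCG2 (SE 0.84). With 1 library left out in turn they lay between 0.77 and 1.44, 0.46 and 1.26, and 0.32 and 1.22, and CHGB and SCG2 were lowest without the second TMG library. DESeq2 on the 16 libraries called no member on D0 or D12 and 5 and 11 of all genes.

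On D30 the differences were larger. CHGA was higher in TMG-treated cells by 4.86 on the log2 scale (SE 1.12, adjusted p = 0.185), PCSK2 by 3.81 (SE 0.83, adjusted p = 0.174), CHGB by 2.86 (SE 0.80, adjusted p = 0.229) and SCG3 by 2.26 (SE 0.75, adjusted p = 0.284), all by edgeR. These 4 were the members with an unadjusted p under 0.05, 4 of 9 against 7.1% of all genes, and none of the 9 or of all genes (0%) passed after adjustment in this fit. The fold for CHGA rests on 14 counts in the controls together. The other 5 differed by 1.13 in PCSK1 (SE 0.65), 1.00 in VGF (SE 0.85), 0.77 in SCG2 (SE 0.77), 0.33 in CPE (SE 0.46) and -0.68 in SCG5 (SE 0.90), each within about 2 standard errors of no change. Leaving out 1 library moved these values widely, from 0.34 to 2.65 in PCSK1, from 0.47 to 1.80 in VGF and from 0.04 to 2.36 in SCG2. PCSK1 and VGF were at the upper end without the first control library and at the lower end without the second, and SCG2 the other way round. SCG5 lay between -1.84 without the first TMG library and -0.04 without the second.

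In 6 of the 9 genes (CHGA, CHGB, SCG3, VGF, PCSK2 and CPE) both TMG libraries of D30 lay above both controls, against 23.1% of all genes. The members' median was 1.13, with 8 of 9 higher, and the median of all genes was 0.01, with 50.8% higher. The call depended on the settings, the tool among them. DESeq2 on 16 libraries called CHGA (adjusted p = 0.000166), PCSK2 (adjusted p = 0.000408) and CHGB (adjusted p = 0.0196), 3 of 9 genes against 1.98% of the 19077 genes it tested, and on the 4 libraries of D30 alone it called SCG3 as well, 4 of 9 against 2.89% of genes. Without the second TMG library of D30 the log2 differences were 3.43 in CHGA, 2.94 in PCSK2, 1.83 in CHGB and 1.60 in SCG3, and 2 of the 9 genes were higher at an unadjusted p under 0.05, against 2.15% of all genes. Without the second control library the differences were 6.94 in CHGA, 4.46 in PCSK2, 4.36 in CHGB and 1.89 in SCG3.

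On D70 no member and no gene passed in the same edgeR fit (0%). CHGA alone was higher at an unadjusted p under 0.05, 1 of 9 genes against 2.61% of all genes. Its log2 difference was 3.01 (SE 0.93, adjusted p = 0.868). PCSK2 followed at 1.26 (SE 0.73) and CHGB at 0.62 (SE 0.72), and the other 6 lay between -0.40 and 0.39. The median was 0.32, with 7 of 9 higher. DESeq2 on 16 libraries called no member and 55 of all genes. Without the first D70 control library the difference in CHGA was 2.33, and then no member was higher at an unadjusted p under 0.05, against 3.05% of all genes. Without the second TMG library CHGA was at 1.57 (SE 0.87) and no longer among them, and PCSK2 and VGF were the members higher at an unadjusted p under 0.05 (2.75% of all genes). Without the second control library they were CHGA and PCSK2 (5.7% of all genes). Without the first TMG library the difference in CHGA was 3.72 (adjusted p = 0.0487 by edgeR), in a fit that called 3.07% of all genes, and that in PCSK2 was 0.20. Over the 4 fits PCSK2 lay between 0.20 and 2.43.

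**Figure D2:**
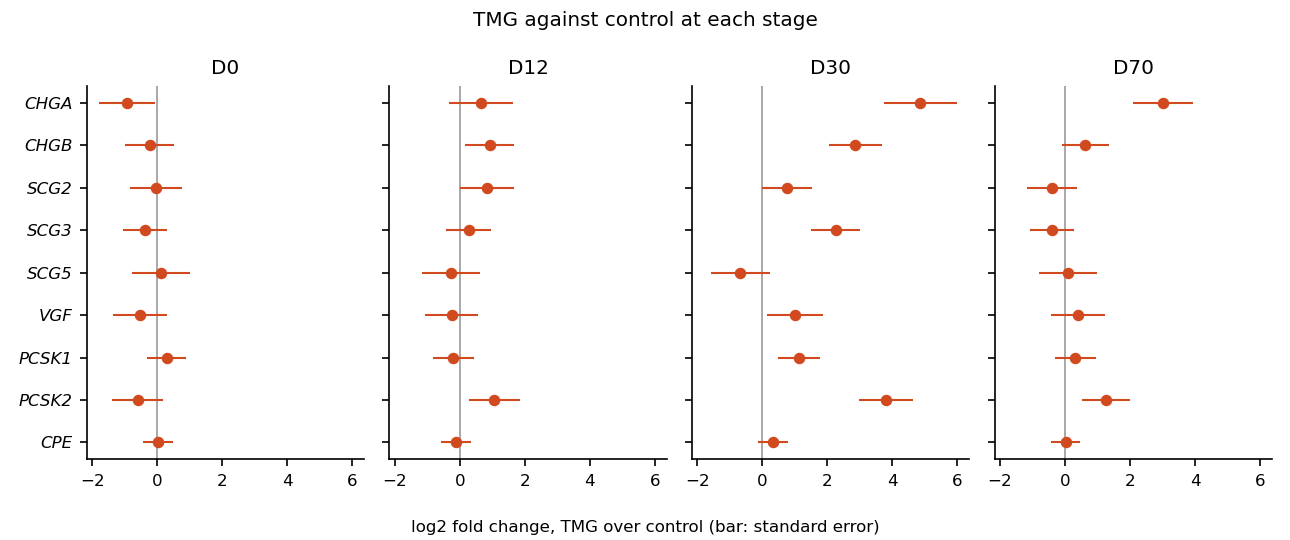
Log2 fold change of TMG over control for each gene at each stage, as points with bars for 1 standard error, from a fit to all 16 libraries (2 libraries per group). On D30 CHGA, PCSK2, CHGB and SCG3 lay between 2.26 and 4.86, and on D0 and D12 every point lay between -0.92 and 1.06.

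The differences between stages in the effect of TMG were tested as interactions. In the same edgeR fit none passed for a member or for any gene between D0 and D12 (0%), between D12 and D30 (0%) or between D30 and D70 (0%). At an unadjusted p under 0.05 there were 260, 828 and 977 genes (1.07%, 3.41% and 4.03% of all genes). DESeq2 on 16 libraries called 3, 17 and 24, none of them a member. CHGA and PCSK2 were among the 828 genes, with effects larger on D30 than on D12 by 4.21 (SE 1.48) and 2.75 (SE 1.11). SCG3 and PCSK2 were among the 977, with effects smaller on D70 than on D30 by 2.65 (SE 1.02) and 2.55 (SE 1.07). The D70 effect in SCG3 was 0.36 without the second TMG library of D70 and -2.08 without the first. In PCSK2 these were 1.87 and 0.20. The interactions with D30 share the D30 libraries.

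Markers of several cell types were compared between the arms on D30, and none of them passed after adjustment by edgeR. The study had reported TBR1, NEUROD2 and NEUROD6 as higher, and PAX6 and SOX2 as lower, in TMG-treated cells of these same libraries. The numbers of markers in a direction are therefore a description and not independent evidence. The 6 cortical excitatory neuron markers all had a positive log2 difference (median 2.47), as did 50.8% of all genes. Their summed level was 22.2 and 25.4 CPM in control and 42.1 and 153.6 CPM in TMG. The log2 differences of the 7 mesenchyme genes were positive too (median 2.09), with a summed level of 4562 and 5304 CPM in control and 5717 and 29704 CPM in TMG. The second TMG library held most of this difference, and it was also the one with the higher CHGA, CHGB, SCG3 and PCSK2. The summed neural crest level was 58.5 and 31.4 CPM in control and 38.2 and 101.5 CPM in TMG. All 6 astroglia markers (median 0.68) and 5 of 6 retinal pigment epithelium markers (median 1.76) had positive differences as well. All 5 neural progenitor markers tested had negative differences (median -0.50) and a summed level of 858 and 776 CPM in control and 733 and 552 CPM in TMG.

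Of the 6 pluripotency genes 5 had a positive log2 difference on D30 (50.8% of all genes), 3 of them at an unadjusted p under 0.05 (7.1% of all genes), and none passed after adjustment by edgeR. The study had already reported POU5F1, as OCT4, as higher in TMG on D30 and D70 in these libraries. POU5F1 was at 0.094 and 0.401 CPM in control and 9.13 and 5.49 CPM in TMG, NANOG at 0.188 and 0.151 CPM in control and 1.07 and 1.23 CPM in TMG, and TDGF1 at 0.094 and 0.251 CPM in control and 4.76 and 1.23 CPM in TMG. The summed level of the 6 genes, most of it LIN28A and DPPA4, overlapped between the arms, at 59.3 and 31.9 CPM in control and 82.5 and 28.3 CPM in TMG. CHGA and SCG3 are the members that were high in stem cells, while PCSK2 and CHGB were not. CHGA was higher in the second TMG library than in the first, POU5F1 and TDGF1 were lower in it, and NANOG was slightly higher. The part of any of these markers in the D30 differences was not tested.

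Markers of neuroendocrine cells outside the brain were also looked at. Of 6 peripheral and sympathoadrenal markers tested 5 had a positive log2 difference on D30 (median 0.60), 2 of them at an unadjusted p under 0.05 (7.1% of all genes), and none passed after adjustment by edgeR. The summed level of that list was 21.5 and 35.7 CPM in control and 68.8 and 64.0 CPM in TMG, with TH, the first enzyme of dopamine synthesis, at 0.282 and 3.06 CPM in control and 11.1 and 24.7 CPM in TMG. The 6 endoderm and enteroendocrine markers, of which 2 passed the filter on low counts, summed to 1.2 and 3.4 CPM in control and 5.0 CPM in each TMG library.

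On D70 the members went apart within an arm, as did the makeup of the libraries. The second TMG library had the highest CHGA (100.3 CPM) and the lowest VGF, SCG3 and SCG5 of the stage. Its summed pan-neuronal level of 313.5 CPM was the lowest of all 16 libraries, against 1842 CPM in the first TMG library and 1561 and 931.9 CPM in the controls, and its mesenchyme level was the highest. The summed level of the cortical excitatory neuron markers was 133.5 CPM there, most of it BCL11B (130.8 CPM), against 64.0 to 122.6 CPM in the other 3 libraries of D70. Without that library the D70 difference in CHGA was 1.57, and those in VGF and SCG5 were 1.30 and 0.99. Without the first TMG library instead, VGF was lower in TMG by 2.66 (adjusted p = 0.0440 by edgeR), SCG5 by 2.82 and SCG3 by 2.08, and 3.07% of all genes were called in that fit. The part of the makeup of the libraries in these values was not tested.

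**Figure D3:**
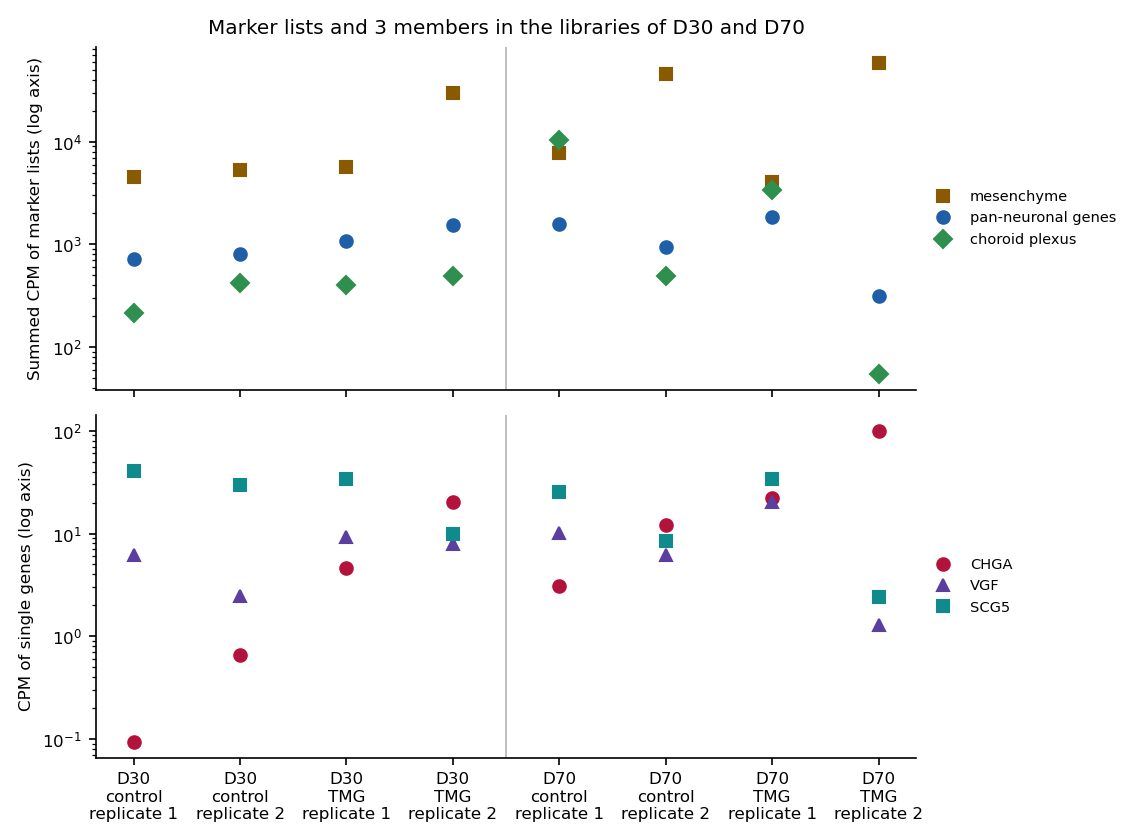
Summed CPM of the mesenchyme, pan-neuronal and choroid plexus lists (upper panel) and CPM of CHGA, VGF and SCG5 (lower panel) in each of the 8 libraries of D30 and D70, both on log axes, 1 point per library and gene or list. In the second TMG library of D70 the mesenchyme level was 59108 CPM, the pan-neuronal level 313.5 CPM and CHGA 100.3 CPM, its highest.

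Other genes of the same pathway lay in both directions. Of 20 further processing enzymes and their inhibitors that were tested, 10 were higher and 10 lower in TMG-treated cells on D30, with a median log2 difference of -0.02. At an unadjusted p under 0.05 there were 2 in each direction, where the shares of all genes were 7.1% higher and 4.89% lower. PCSK6, a convertase of growth factors, was at 9.30 and 16.4 CPM in control and 37.01 and 58.2 CPM in TMG. PCSK4 (14.4 and 23.9 CPM in control, 9.03 and 4.73 CPM in TMG) and QPCTL, which closes the amino end of peptides (20.3 and 14.9 CPM in control, 8.74 and 5.77 CPM in TMG), were the lowest relative to control.

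Of 27 neuropeptide precursors tested 13 were higher and 14 lower on D30 (median -0.08), with 2 and 1 at an unadjusted p under 0.05, shares near the 7.1% and 4.89% of all genes. Only 2 had a mean of at least 5 CPM. TRH, the precursor of thyrotropin-releasing hormone, was at 456 and 721 CPM in control and 175 and 1.80 CPM in TMG (log2 difference -2.74, SE 1.68, adjusted p = 0.560 by edgeR). Without the first TMG library the difference was -8.35, and without the second it was -1.75. TRH was the most abundant peptide precursor of the D30 controls, and the second TMG library was far below the other 3. CBLN1, a secreted synapse organiser, was at 35.6 and 46.7 CPM in control and 173 and 257 CPM in TMG (2.38, SE 1.59, adjusted p = 0.596). The arms did not overlap for either, and on D30 both TMG libraries lay below both controls in 21% of all genes and above them in 23.1%.

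Of 40 genes of dense core vesicle formation and release 27 were higher and 13 lower (median 0.38), and 7 and 3 had an unadjusted p under 0.05 (7.1% and 4.89% of all genes). SYT4, a synaptotagmin of dense core vesicles, was at 2.91 and 19.7 CPM in control and 43.9 and 109.3 CPM in TMG. CPLX2, a complexin, was at 4.79 and 3.86 CPM in control and 5.25 and 15.05 CPM in TMG. SYT11 and RAB3A had the largest differences downwards, at -1.05 (SE 1.14) and -0.82 (SE 0.58).

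Of 35 factors known to control peptide genes 27 were higher and 8 lower (median 0.44), with 8 and 0 at an unadjusted p under 0.05 (7.1% and 4.89% of all genes). INSM1, a factor of neuroendocrine differentiation, was at 4.60 and 7.38 CPM in control and 18.2 and 45.5 CPM in TMG. SRRM4, a splicing factor of neurons that acts on REST among others, was at 2.63 and 4.92 CPM in control and 15.2 and 28.6 CPM in TMG. REST itself was singled out after its values were seen, because both RE1 parts were found in SCG3. It was at 125 and 121 CPM in control and 157 and 158 CPM in TMG (log2 difference 0.36, SE 0.15, adjusted p = 0.376 by edgeR). NR4A1 and CREM had the largest differences downwards, at -0.58 (SE 0.40) and -0.40 (SE 0.33). EGR1 and FOS, which like NR4A1 are induced by activity, had positive differences. EGR1 was at 11.4 and 38.7 CPM in control and 33.1 and 103 CPM in TMG, and FOS at 16.4 and 22.8 CPM in control and 23.3 and 66.9 CPM in TMG, and the arms overlapped for EGR1.

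Of 19 pan-neuronal genes 17 were higher and 2 lower (median 1.16), with 7 and 0 at an unadjusted p under 0.05, beside the same shares of all genes. The median was close to that of the granin and enzyme members. The study had named STMN2 and TAGLN3 of this list, and NHLH1 of the regulators, as raised by TMG in these libraries. NSG2 was at 4.04 and 5.42 CPM in control and 21.7 and 47.2 CPM in TMG, and ELAVL4 at 1.69 and 1.81 CPM in control and 9.42 and 14.5 CPM in TMG. RBFOX3 and STMN4 were the 2 lower genes, at -0.33 (SE 0.49) and -0.05 (SE 1.28). No gene of these lists passed after adjustment over all genes by edgeR.

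**Figure D4:**
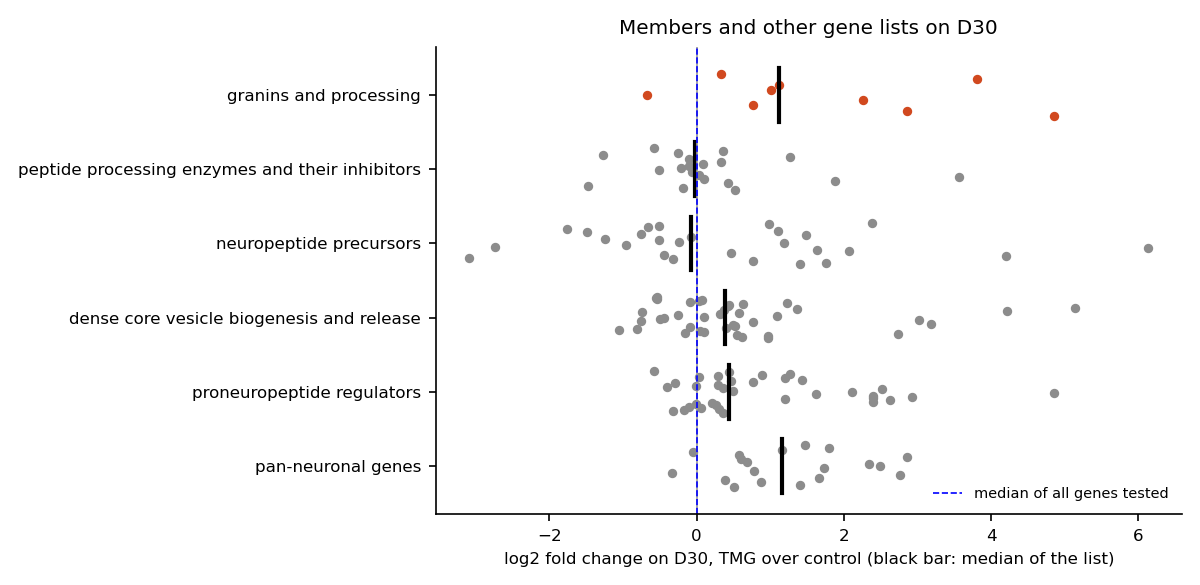
Log2 fold change of TMG over control on D30 for the 9 members (red) and the genes of 5 other lists (grey), 1 point per gene spread vertically for legibility, with the median of each list as a black bar and the median of all 24249 genes as a dashed line. The medians were 1.13 for the members, -0.02 for further processing enzymes, -0.08 for neuropeptide precursors, 0.38 for dense core vesicle genes, 0.44 for regulators and 1.16 for pan-neuronal genes.

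The 9 genes did not follow 1 pattern over the 16 libraries. The 36 pairs had a median Pearson r of 0.18 on log2 CPM, with 23 positive and 4 over 0.7. The pairs over 0.7 were CHGB with PCSK2 (0.87), SCG2 with PCSK2 (0.78), CHGA with SCG3 (0.76) and CHGA with PCSK1 (0.74). The lowest were SCG3 with CPE (-0.76) and CHGA with SCG5 (-0.65). PCSK2 and its chaperone gene SCG5 had an r of -0.38. These points share stages, arms and libraries, and r is given as a description.

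With the mean of each stage removed, the median r was 0.29 and CHGB with PCSK2 stayed the highest pair at 0.88, while CHGA with SCG3 was at 0.40 and CHGA with PCSK1 at 0.32. CHGA with PCSK2 was higher without the stage means, at 0.78. With group means removed, which leaves the difference between replicates, SCG5 with VGF was at 0.88 and CHGA with SCG5 at -0.80.

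The genes whose pattern was most like a member's, by r of log2 CPM over the 16 libraries, were other ones for each member. They were ATP10A, FBLIM1 and RIMS4 for CHGA (0.94 each), and STUM, TMOD2 and SYP for CHGB (0.92, 0.92 and 0.91). SYP is synaptophysin, a protein of synaptic vesicles. For SCG2 they were TGFBI, FSTL5 and DCN (0.96, 0.93 and 0.92), of which TGFBI and DCN encode extracellular matrix proteins. ZDHHC22, CSMD2 and CHDH were nearest to SCG3 (0.96 each) and TMEM178A, SEMA6B and PTPRJ to SCG5 (0.94, 0.93 and 0.93). VGF had the least like neighbours, RFX5-AS1, TMEM121B and ERC2 (0.87, 0.84 and 0.84). Among the enzymes, PCSK1 was nearest to METTL25, DOCK5 and TNFAIP8 (0.89, 0.87 and 0.86), PCSK2 to PRDM8, ABLIM3 and NBL1 (0.96, 0.95 and 0.94) and CPE to SMPD1, COLEC12 and CCDC93 (0.97, 0.97 and 0.96).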

How the data were processed

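Gene expression was measured by sequencing of rRNA-depleted total RNA in 16 libraries of H9 cells (8 groups of 2). The authors aligned reads with Bowtie2 to hg19 and deposited estimated counts from RSEM 1.2.12 for Ensembl genes (GRCh37.p13), as whole numbers and not normalized. How they were rounded and whether strand was used are not given in the sources used here. The deposited counts of 57736 genes were used as given.

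Groups were taken from the titles. Symbols matched 55501 genes, and NEFL of the pan-neuronal list was not analysed here. Genes were kept by filterByExpr (minimum count 10, minimum total count 15) and fitted with edgeR 4.0.16 (TMM, robust quasi-likelihood F-test, 1 mean per group, 8 residual degrees of freedom) and a Benjamini-Hochberg threshold of 5% for each comparison. The log2 fold change divided by the root of F gave its standard error. Levels are TMM-scaled CPM, per kb by exon lengths of GENCODE v44 lifted to GRCh37, which is newer than the annotation the authors used. Log2 CPM for correlations used a prior count of 2. R 4.3.3, DESeq2 1.42.0, Python 3.11.15, pandas 2.3.3 and numpy 2.4.6 were used, and the fits were tested on simulated data.

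The members and lists were chosen with earlier results of these data known. From each list the text names the 2 largest rises and the 2 largest falls on D30 among genes with a mean of at least 5 CPM, the 3 genes most like each member, and markers where a result turns on them. Some genes that this rule covers are not reported here. Alternatives were DESeq2, RLE scaling, no filter, a replicate block, fits of 4 libraries, and leaving out each library. Libraries held 10334908 to 19836878 counts, and replicates differed by far more than counting error (chi-square per degree of freedom 29.1 to 181), so none was counted as a repeat. The study describes them as biological replicates.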

Additional observations from a re-analysis of the deposited data

How the results depend on the processing

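DESeq2 on 16 libraries called 3 members on D30 in TMG against control, and on 4 libraries 4, where edgeR called 0. Between stages it called 4 for D70 over D30, 5 for D30 over D0 and 4 for D70 over D12 in controls and 3 for D30 over D12 in TMG (edgeR 0, 3, 2 and 0), where it called 1717, 8593, 4539 and 1159 of all genes. Of all genes on D30, edgeR called 0, DESeq2 597, the replicate block 233 and edgeR with no filter 21. On D70 edgeR with no filter called 3 genes and with the replicate block 1, and on D0 with no filter 1. For the differences between stages in the effect of TMG, edgeR with no filter called 1, 1 and 3 genes. With no filter 0 members were called for D30 over D12 and 3 for D70 over D0 in controls, where 804 and 5691 of 43143 genes were called. On 4 libraries edgeR left 0 members at an unadjusted p under 0.05 on D70, a count chosen after seeing the data. RLE scaling changed no call and no direction of the members in TMG against control. The cause of these differences was not tested.

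By the labels the libraries share only a replicate number: the r of replicate differences between arms ranged from 0.05 (D0) to 0.61 (D70), with 0.37 for D12 and 0.22 for D30. With the replicate block 1 member, CHGA, was called on D30 (adjusted p = 0.0296 by edgeR), where 233 of 24249 genes were called. With it 4 log2 differences changed sign (SCG2 on D0 at 0.043, CPE on D12 at 0.16, SCG5 and VGF on D70 at -0.53 and -0.38).

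Leaving out 1 library in turn, with the lone library assumed to vary like the other groups, gave 0 to 2 members called on D70 in TMG against control (2 without the first TMG library, with 3.07% of all genes). In controls it gave 1 to 3 for D12 over D0, 0 for D30 over D12, 0 to 1 for D70 over D30, 3 to 5 for D30 over D0, 0 to 2 for D70 over D12 and 2 to 3 for D70 over D0. In TMG it gave 0 to 1 for D12 over D0 and for D70 over D30, and 0 to 2 for the effect on D70 minus that on D30. The shares of all genes called were, in the same order, 3.96% to 6.96%, 0% to 0.775%, 0% to 0.757%, 13.9% to 17%, 1.33% to 8.78% and 14.2% to 23.9% in controls, 3.21% to 6.36% and 0.00769% to 6.29% in TMG, and 0% to 1.39% for the difference of effects. Members higher at an unadjusted p under 0.05 were 2 to 5 on D30 (2.15% to 9.15% of all genes) and 0 to 2 on D70 (2.75% to 7.47%). These log2 differences changed sign. On D0: CHGB -0.56 to 0.11, SCG2 -0.43 to 0.59, SCG3 -0.66 to 0.0035, SCG5 -0.088 to 0.41, PCSK1 -0.094 to 0.87, PCSK2 -1.10 to 0.24 and CPE -0.024 to 0.10. On D12: PCSK1 -0.48 to 0.10 and CPE -0.78 to 1.14. On D30: STMN4 -0.24 to 0.12. On D70: CHGB -0.62 to 1.28, SCG2 -1.12 to 1.14, SCG3 -2.08 to 0.60, SCG5 -2.82 to 1.09, VGF -2.66 to 1.30 and CPE -0.29 to 0.30. In controls, D12 over D0: PCSK2 -1.13 to 0.20. D30 over D12: CHGB -2.10 to 0.025, PCSK1 -1.84 to 0.47, PCSK2 -0.77 to 0.28 and CPE -0.70 to 1.19. D70 over D30: SCG2 -0.30 to 2.85 and CPE -0.10 to 0.37. D30 over D0: PCSK2 -1.39 to 0.091. D70 over D12: SCG5 -1.55 to 0.0063 and CPE -0.56 to 1.37. D70 over D0: SCG5 -0.83 to 0.75 and PCSK1 -0.47 to 0.50. All 9 members kept their direction on D30 in TMG against control under each library left out.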

Other observations

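TRH, the precursor of thyrotropin-releasing hormone, was at 0.549 to 1.05 CPM on D0, at 71.7 and 19.3 CPM in control and 15.8 and 1.86 CPM in TMG on D12, and at 24.9 and 85.1 CPM in control and 11.2 and 0.0925 CPM in TMG on D70. Both TMG libraries lay below both controls at D12, D30 and D70, as in 16.5%, 21% and 12.4% of all genes. The log2 differences of TRH were -2.35 (SE 1.68), -2.74 (SE 1.68) and -3.26 (SE 1.77), none of which passed after adjustment by edgeR. With 1 library left out in turn the D30 value lay between -8.35 and -1.75. PCSK1N, the inhibitor of PCSK1, went from 1.72 to 2.60 CPM on D0 to 197 and 15.2 CPM in control and 139.8 and 18.96 CPM in TMG on D70, where the replicates differed far more than the arms.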
